A study of Mus musculus with 6 samples.

Results

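The genes described here are the *Zbtb* genes of the E9.5 mouse heart, the large family of BTB zinc finger transcription factors to which *Hic2* belongs by its structure. They were chosen by name and not by their values. Every transcript cluster annotated to a single gene symbol made of Zbtb, a number and optional letters was taken, with 1 gene of that name pattern not reported, and a gene with several clusters was represented by its brightest over all arrays. This gave 27 of the 14860 genes that had a cluster of their own. A transcript cluster is the set of probes that the array uses for a gene.

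Proteins of this family carry a BTB domain near the amino terminus, through which they pair with one another and bind corepressors and the ubiquitin ligase scaffold CUL3, and a row of zinc fingers near the carboxyl terminus that reads DNA. Most members that have been studied repress transcription, and several set cell fate in blood, brain and muscle. HIC2 and its relative HIC1 have the same build, and HIC1 binds DNA at a GGCA core. The comparison asks whether other genes of the family differed in level in hearts that had lost *Hic2*.

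The 6 samples, each hybridised to an Affymetrix Mouse Exon 1.0 ST array, were 3 of wildtype hearts (Mesp1+/+; Hic2 FL/FL) and 3 of mutant hearts that lost *Hic2* conditionally (Mesp1Cre/+; Hic2 FL/FL), all at E9.5. By the labels both genotypes were homozygous for the floxed *Hic2* allele, although the methods also allow wildtype hearts with 1 floxed copy. Cre knocked into *Mesp1* deletes it in anterior mesoderm and what derives from it, which includes some blood cells, and leaves 1 intact *Mesp1* copy. For each sample 4 to 6 whole hearts were pooled with their blood, from embryos that by the methods showed no phenotype, and hearts with Cre alone were not analysed here. Values are on the log2 scale, and the level of a cluster depends on its probes, so genes were not ranked by level. Mutant and wildtype were compared with limma, an empirical Bayes linear model, over 10439 clusters that were annotated to a gene and had a linear mean over 100 in the higher genotype, with Benjamini-Hochberg adjustment over all of them.

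*Hic2* itself lay at 9.35, 9.36 and 8.91 in wildtype replicates 1, 2 and 3 and at 8.27, 8.23 and 8.37 in the mutants. The mutant arrays were all below the wildtype arrays, with a log2 difference of -0.92 (standard error 0.137, limma adjusted p = 0.125), and the sources used here do not say whether the probes lie in the deleted part. Correlations between arrays ran from 0.988 to 0.993 within and between genotypes. The heart muscle markers *Tnnt2*, *Myl7*, *Nkx2-5*, *Gata4* and *Ryr2* had no value below 10.94 on any array. The means of all 7 endothelial markers were lower in the mutant (median log2 difference -0.26, with 3 of 7 lower before and 0 after adjustment, at p under 0.05 by limma), with summed linear levels of 12055 to 12427 in the wildtype and 9267 to 12304 in the mutant. The means of all 12 erythroid markers on the array were higher (median 0.83, with 10 of 12 higher before and 0 after adjustment, at p under 0.05 by limma), with sums of 27937 to 38301 and 39806 to 43598. Of all tested clusters, 71.8% had a lower mean, and before adjustment 5.90% were lower and 1.68% higher at p under 0.05 by limma. None of these markers was at 0. In bulk tissue, fewer cells of a type and less RNA per cell cannot be told apart.

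The *Zbtb* genes were widely detected and none of them passed the test. Of the 27 genes, 25 were over the intensity filter, and 66.7% of all genes with their own cluster were. The wildtype means of the 27 ran from 6.18 for *Zbtb8b* to 10.64 for *Zbtb38*, with 24 over a linear mean of 100 in the wildtype and 25 in the mutant. *Zbtb32* entered the test through the mutant alone, at a linear mean of 102.2 against 93.4 in the wildtype. *Zbtb8b* and *Zbtb49* stayed below the filter in both genotypes and were not tested.

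At an adjusted p under 0.05, 0 of the 25 tested genes differed by limma, where 0.0671% of all tested clusters did. The methods' t-test called 0 of all tested clusters after adjustment, these genes included. Before adjustment, at p under 0.05, 0 genes were lower and 0 higher, against 5.90% and 1.68% of all tested clusters. With the replicate number as a block, *Zbtb14* and *Zbtb37* were lower at this threshold (unadjusted p = 0.0246 and 0.0260, adjusted p = 0.485 for both, by limma), where 7.43% of all tested clusters were lower in the same fit. The genes had folds between 0.785 and 1.09, and 23 of the 25 lay within 1.2-fold of no change. The 95% interval of the difference covered 0 for all 25. It excluded a rise of 1.5-fold for 25 genes and a fall of 1.5-fold for 23, the exceptions being *Zbtb14* and *Zbtb37*.

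Means nevertheless lay mostly below 0. In the mutant 22 of the 25 had the lower mean, a share of 88.0% where all tested clusters had 71.8%, and the counts were 18 after quantile normalisation and 15 after cyclic loess, where all tested clusters had 58.2% and 54.4%. The median log2 difference of the 25 was -0.15 (quartiles -0.22 and -0.07), and that of all tested clusters was -0.09. After quantile normalisation the medians were -0.07 and -0.03, and after cyclic loess -0.06 and -0.01. With the median of the erythroid markers on each array as a covariate, 24 of the 25 lay below 0, where 79.8% of all tested clusters did, and the medians were -0.28 and -0.21. The part of the endothelial markers in these values was not tested.

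**Figure D1:**
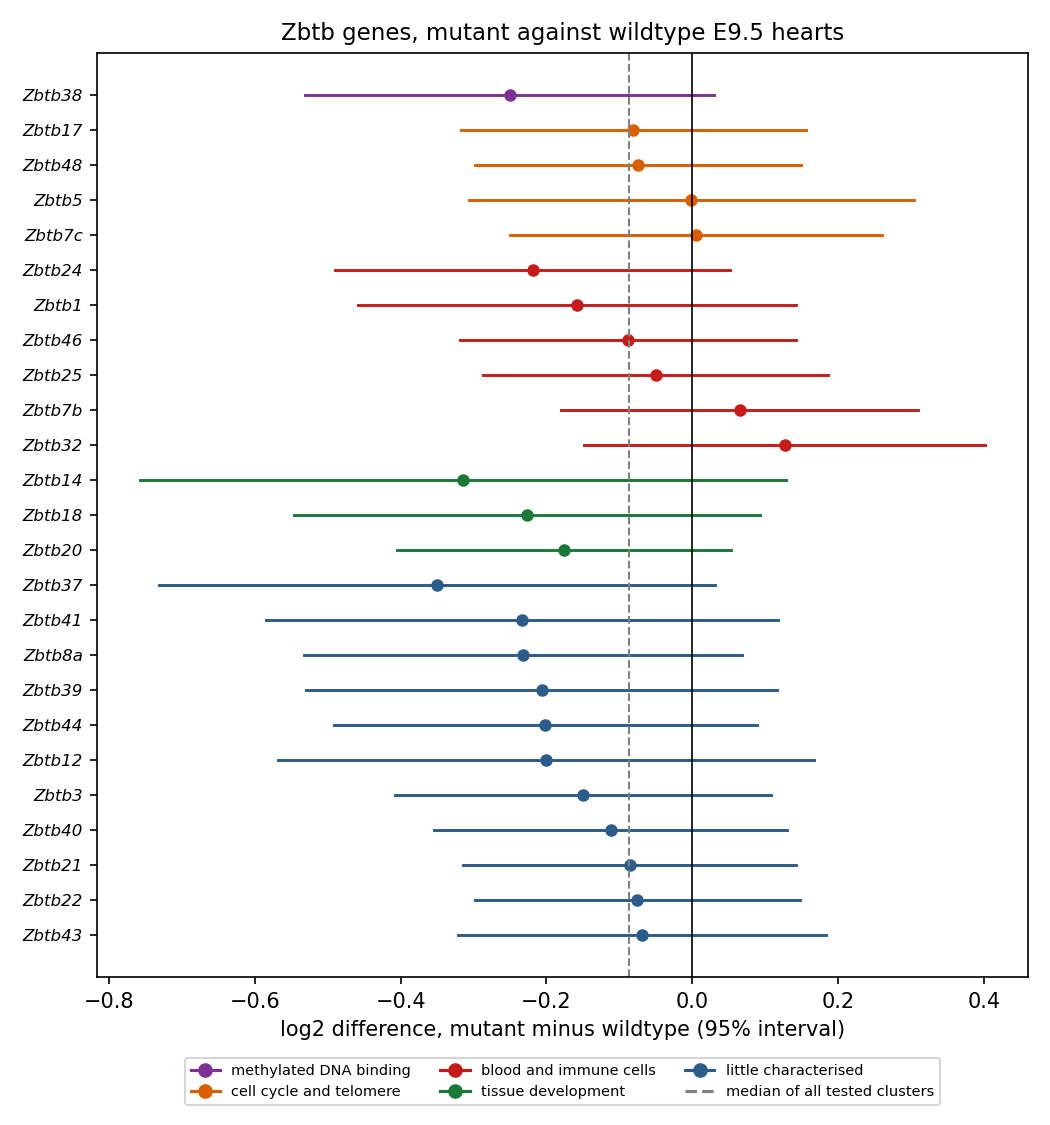
Log2 difference, mutant minus wildtype, of the 25 tested *Zbtb* genes (points) with 95% intervals from limma (lines), coloured by role. Every interval crosses 0 (solid line), and the points run from -0.35 for *Zbtb37* to 0.13 for *Zbtb32*, with the median of all tested clusters at -0.09 (dashed line).

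The pools did not contribute evenly. Mutant replicate 2 was the lowest of the 6 arrays for 15 of the 25 genes, and it was the lowest for 43.9% of all tested clusters. Wildtype replicate 1 was the highest for 13 of the 25. The share over all tested clusters was not counted, and their median was also highest on that array. Relative to the wildtype mean, the median of the 25 genes stood at 0.08, -0.00 and -0.08 on wildtype replicates 1, 2 and 3 and at -0.09, -0.24 and -0.04 on the mutant arrays. The corresponding medians of all tested clusters were 0.08, 0.03 and -0.12, and -0.06, -0.14 and -0.06. Mutant replicate 3 thus lay within the wildtype range for the family as a whole, mutant replicate 1 at its lower edge and mutant replicate 2 below it. Without mutant replicate 2 the median difference of the 25 was -0.09, against -0.06 for all tested clusters, and without wildtype replicate 1 it was -0.06 against -0.05. The endothelial markers were low on mutant replicates 1 and 2 (-0.34 and -0.37) and at -0.08 on mutant replicate 3. Mutant replicate 3 also had the highest values of the liver and endoderm markers, with *Alb* at 8.28 against 4.57 to 5.33 on the other arrays and *Fgb* at 7.53 against 5.07 to 5.69. *Afp* was at 9.44 there, at 7.89 on wildtype replicate 1, at 7.03 on mutant replicate 1 and between 4.86 and 4.95 on the other arrays. *Ttr* was little higher on mutant replicate 3 (8.76) than on wildtype replicate 1 (8.64). It was at 7.82 on mutant replicate 1 and between 6.86 and 7.13 on the other arrays. The part of these markers in the values of the family was not tested.

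**Figure D2:**
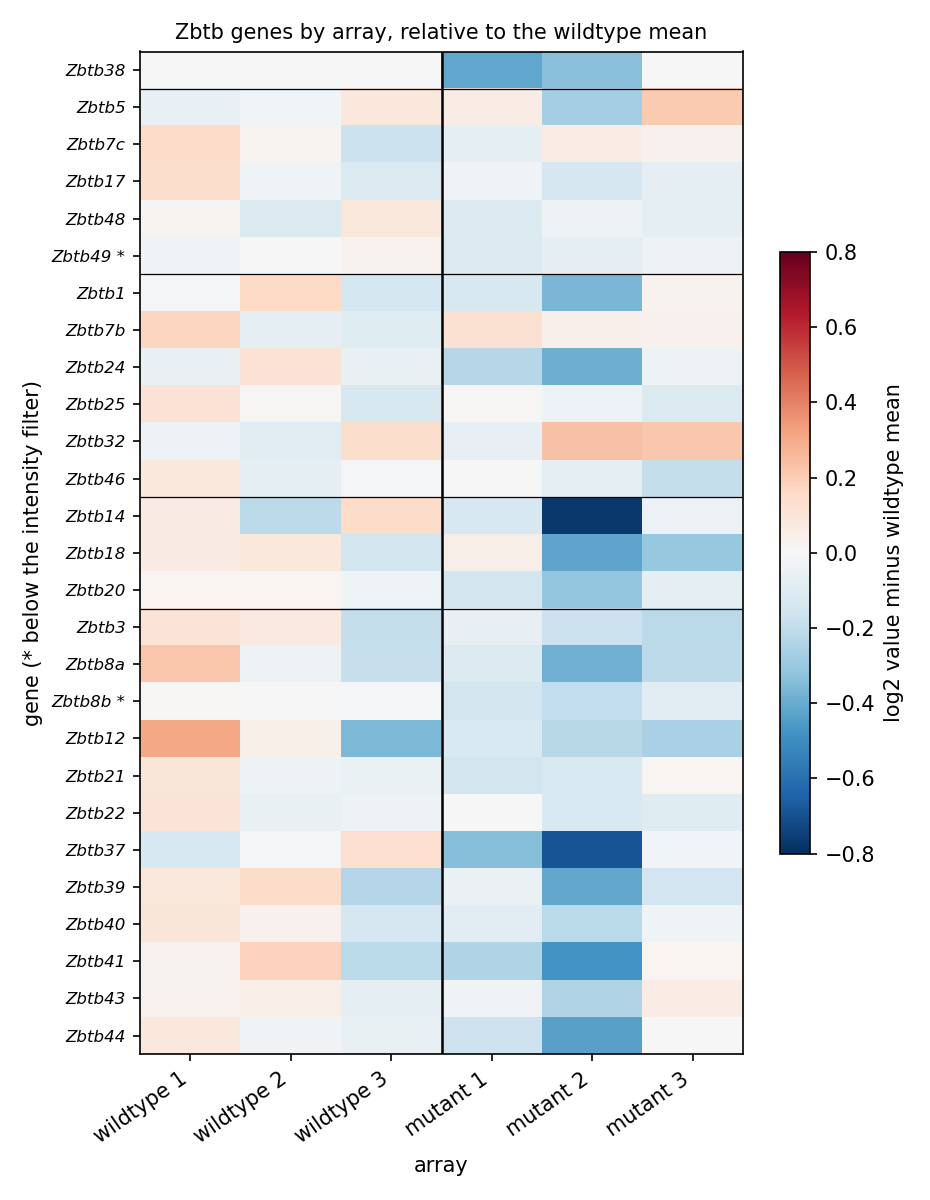
Log2 value minus the wildtype mean of that gene (colour) for each of the 27 *Zbtb* genes (rows, grouped by role) on the 6 arrays (columns), with asterisks on the 2 genes below the intensity filter. The darkest cells are those of *Zbtb14* and *Zbtb37* on mutant replicate 2. This array was the lowest for 15 of the 25 tested genes and for 43.9% of all tested clusters.

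**Figure D3:**
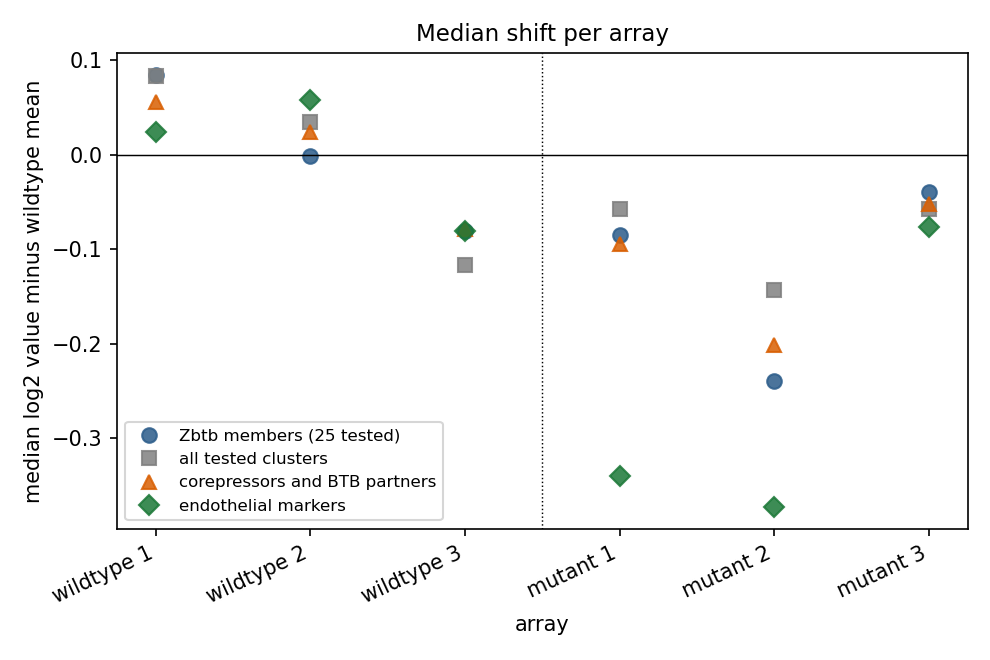
Median of the log2 value minus the wildtype mean (vertical axis) on each array (horizontal axis), for the 25 tested *Zbtb* genes, all tested clusters, the 19 corepressors and BTB partners and the 7 endothelial markers. The *Zbtb* median falls to -0.24 on mutant replicate 2, where that of all tested clusters is -0.14, and the endothelial median is also low on mutant replicate 1.

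The spread between pools was that of the array as a whole. The median SD of the 25 genes was 0.12 in the wildtype and 0.14 in the mutant, where all tested clusters had 0.13 and 0.14. The mutant SD was the larger for 14 of the 25, and for 50.2% of all tested clusters. The 95% interval of a difference, taken for each gene before adjustment, reached a median of 0.27 to either side with 3 arrays per genotype. Smaller differences were mostly not detectable even before adjustment, and the adjusted threshold was harder to pass. *Hic2*, at -0.92, did not pass it (limma adjusted p = 0.125).

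*Zbtb38*, a relative of Kaiso whose protein binds methylated CpG, showed the closest agreement among wildtype pools. It stood at 10.64, 10.63 and 10.63 in wildtype replicates 1, 2 and 3, and at 10.22, 10.30 and 10.63 in the mutants. Mutant replicates 1 and 2 were well below the wildtype arrays and mutant replicate 3 was level with them. The log2 difference was -0.25 (standard error 0.123, 95% interval -0.53 to 0.03, limma adjusted p = 0.606). It was -0.17 without mutant replicate 1 and -0.21 without mutant replicate 2, with unadjusted p-values of 0.273 and 0.177 by limma. Without mutant replicate 3 it was -0.37 with an unadjusted p of 0.00522 and an adjusted p of 0.183 by limma, in a fit where 16.7% of all tested clusters were lower before adjustment.

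Among genes tied to the cell cycle and to telomeres, differences were close to 0. *Zbtb17* encodes MIZ1, the zinc finger partner of MYC, and was at -0.08 (95% interval -0.32 to 0.16). *Zbtb48* encodes a telomere-binding protein that limits telomere length and was at -0.07 (95% interval -0.30 to 0.15). *Zbtb5*, known in human cells as a repressor of the cell cycle inhibitor p21, was at -0.00 (95% interval -0.31 to 0.30), with its mutant arrays spread from 6.89 to 7.37 around a wildtype mean of 7.16. *Zbtb7c* stood at 7.39, 7.26 and 7.07 in the wildtype and at 7.16, 7.30 and 7.27 in the mutant, a difference of 0.01 (standard error 0.112), and the mutant values lay inside those of the wildtype. *Zbtb49*, below the filter, was at 6.45, 6.48 and 6.50 in the wildtype and at 6.36, 6.40 and 6.44 in the mutant. The sign of *Zbtb17*, *Zbtb48*, *Zbtb5* and *Zbtb7c* changed with the processing.

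The genes known from blood and immune cells held the pair with the highest differences. *Zbtb32*, which is expressed in activated lymphocytes, was at 6.50, 6.45 and 6.68 in the wildtype and at 6.47, 6.78 and 6.76 in the mutant. Its mutant replicates 2 and 3 exceeded the wildtype arrays and mutant replicate 1 did not, with a log2 difference of 0.13 (standard error 0.120, 95% interval -0.15 to 0.40, limma adjusted p = 0.706). *Zbtb32* passed the filter through the mutant alone (linear mean 102.2 against 93.4), so the filter itself favoured a positive difference. With the filter set on the mean over all arrays it was not tested. *Zbtb7b* encodes ThPOK, which commits T cells to the helper lineage. It stood at 8.27, 8.02 and 8.01 in the wildtype and at 8.22, 8.14 and 8.13 in the mutant, a difference of 0.07 (standard error 0.107, limma adjusted p = 0.825) with every mutant value inside the wildtype range. The lymphoid markers *Cd3e*, *Cd3g*, *Cd79a*, *Cd79b* and *Rag2* were all below the intensity filter, with a highest linear mean of 90.8 in either genotype.

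*Zbtb24*, mutated in a human immunodeficiency with unstable centromeres, stood at 8.24, 8.42 and 8.24 in the wildtype and at 8.07, 7.91 and 8.26 in the mutant. Its difference was -0.22 (95% interval -0.49 to 0.05, limma adjusted p = 0.606), and the genotypes overlapped through mutant replicate 3. *Zbtb46*, a marker of classical dendritic cells that endothelium also expresses, was at -0.09 (95% interval -0.32 to 0.14), beside the endothelial median of -0.26. *Zbtb1*, which mice need to make lymphocytes, and *Zbtb25* are neighbours on opposite strands in the RefSeq annotation. *Zbtb1* was at 9.47, 9.64 and 9.35 in the wildtype and at 9.36, 9.12 and 9.51 in the mutant, with a difference of -0.16 (95% interval -0.46 to 0.14). *Zbtb25* was at 9.45, 9.34 and 9.21 and at 9.34, 9.29 and 9.22, with a difference of -0.05 (95% interval -0.29 to 0.19). *Zbtb1* was lowest on mutant replicate 2, while *Zbtb25* was lowest on wildtype replicate 3.

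The 3 genes with known parts in tissue development all had lower means, where 71.8% of all tested clusters did. *Zbtb20*, which represses alpha-fetoprotein in liver and is needed in the hippocampus, was the single tested gene whose genotypes did not overlap, where 9.59% of all tested clusters lay lower in this way. It stood at 8.93, 8.93 and 8.88 in the wildtype and at 8.76, 8.61 and 8.84 in the mutant. The gap between the lowest wildtype and the highest mutant array was small, and the difference was -0.18 (standard error 0.100, 95% interval -0.40 to 0.05, limma adjusted p = 0.608). No tested gene of the family had all mutant arrays above the wildtype, where 2.82% of all tested clusters did.

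*Zbtb14*, first described as a repressor of the *Myc* promoter, stood at 8.87, 8.59 and 8.95 in the wildtype and at 8.68, 8.04 and 8.76 in the mutant. Mutant replicate 2 was far below the other arrays, and mutant replicates 1 and 3 lay within the wildtype range. Each mutant array was below the wildtype array of the same number, as in *Zbtb37*, *Zbtb18*, *Zbtb20* and others of the family. A pairing by number is not established. The difference of *Zbtb14* was -0.31 (standard error 0.194), with an adjusted p of 0.621, and of 0.485 with the replicate block, by limma. It became -0.09 without mutant replicate 2. *Zbtb18*, a repressor needed by cortical neurons and during skeletal muscle differentiation, stood at 8.83, 8.86 and 8.62 in the wildtype and at 8.81, 8.35 and 8.47 in the mutant. Its mutant replicates 2 and 3 lay below every wildtype array, and the difference was -0.23 (95% interval -0.55 to 0.09, limma adjusted p = 0.621). Without mutant replicate 1 it was lower at an unadjusted p under 0.05 by limma and not after adjustment, where 2.99% of all tested clusters were lower before adjustment.

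Among genes whose function is little known, all 11 tested had a lower mean, where 71.8% of all tested clusters did. The median of the 11 was -0.20, against -0.09 over all tested clusters. *Zbtb21*, *Zbtb22* and *Zbtb43* moved to just above 0 after cyclic loess. *Zbtb37* had the lowest difference of the family. It stood at 8.57, 8.69 and 8.83 in the wildtype and at 8.35, 8.01 and 8.68 in the mutant. Mutant replicates 1 and 2 were below every wildtype array and mutant replicate 3 was among them, with a difference of -0.35 (standard error 0.167, 95% interval -0.73 to 0.03, limma adjusted p = 0.606). The difference was -0.18 without mutant replicate 2 and -0.52 without mutant replicate 3.

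*Zbtb44* was the only one of the 27 with more than 1 cluster of its own, and the clusters differed in how far the genotypes separated. The brighter cluster stood at 9.96, 9.85 and 9.81 in the wildtype and at 9.70, 9.44 and 9.87 in the mutant, a difference of -0.20 (standard error 0.127, 95% interval -0.49 to 0.09, limma adjusted p = 0.625). The dimmer cluster, which was singled out after its values were seen, stood at 8.23, 8.28 and 8.18 and at 7.96, 7.69 and 7.95. Its mutant arrays were all below the wildtype arrays, where 9.59% of all tested clusters lay lower in this way. The difference of this cluster was -0.36 (standard error 0.108, 95% interval -0.61 to -0.12, unadjusted p = 0.00917, adjusted p = 0.606 by limma). In that fit 5.90% of all tested clusters were lower at an unadjusted p under 0.05. As each array was left out the unadjusted p of the dimmer cluster ran from 0.00954 to 0.0419 by limma, and the adjusted p from 0.185 to 0.9997. In those fits between 1.71% and 18.1% of all tested clusters were lower at an unadjusted p under 0.05. The exons that either cluster covers are not stated in the sources used here, and the difference between the clusters was not tested.

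**Figure D4:**
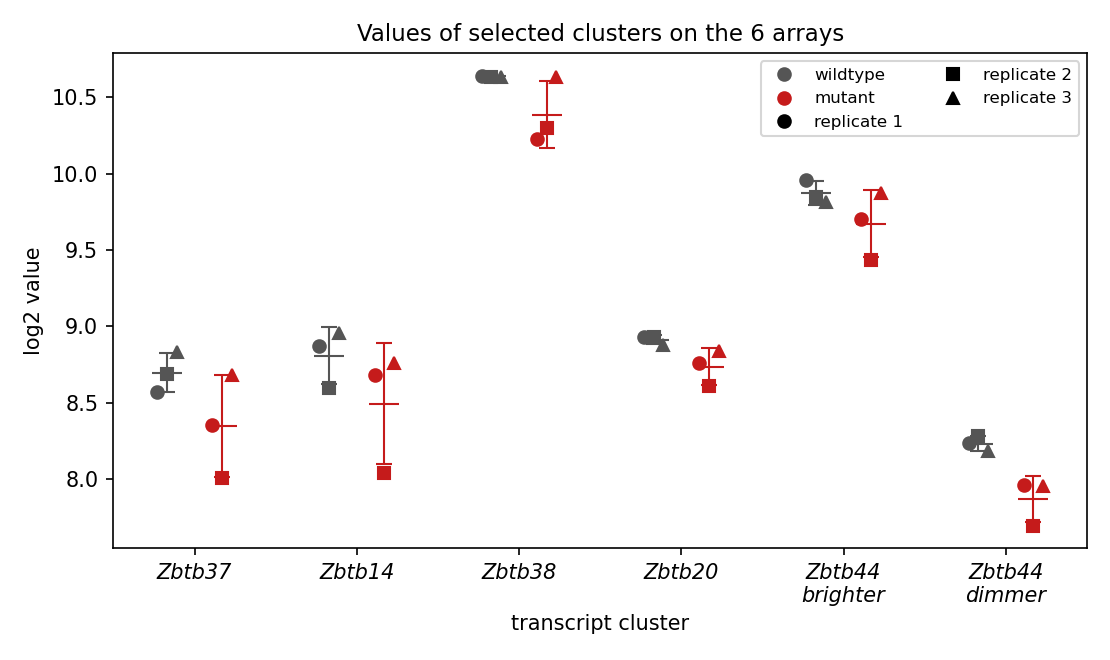
Log2 values (vertical axis) of 6 clusters in the wildtype (grey) and the mutant (red), with a symbol for each replicate and the mean and SD of 3 arrays as bars. Mutant replicate 2 is the lowest array in every cluster but *Zbtb38*, and the mutant arrays lie wholly below the wildtype in *Zbtb20* and the dimmer cluster of *Zbtb44*.

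The remaining genes of this group lay between -0.23 and -0.07. *Zbtb41* was at -0.23, *Zbtb8a* at -0.23, *Zbtb39* at -0.21 and *Zbtb12* at -0.20, with adjusted p-values from 0.608 to 0.661 by limma. *Zbtb12* had the widest wildtype spread of the family, with 9.35, 9.09 and 8.68 against 8.92, 8.82 and 8.78 in the mutant. *Zbtb3* was at -0.15, *Zbtb40* at -0.11, *Zbtb21* at -0.09, *Zbtb22* at -0.08 and *Zbtb43* at -0.07. *Zbtb8b*, a neighbour of *Zbtb8a* in the RefSeq annotation that stayed below the filter, stood at 6.19, 6.19 and 6.17 in the wildtype and at 6.03, 5.99 and 6.09 in the mutant. Rows that carried a family name outside the rule were the antisense-type transcript *Zbtb11os1* at -0.07, a cluster shared by *Zbtb26* and *Zbtb6* at -0.13 and a cluster shared by *Zbtb33* and *Zfp36l1* at -0.06. The probes of a shared cluster cannot assign their signal to either gene.

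To show what lies at the starts of the genes with the lowest difference, with no overlap or with a pair of clusters, the promoter windows of *Zbtb37*, *Zbtb20* and *Zbtb44* are given here from RefSeq (GRCm38.p6), each from 250 bases before to 50 bases after the start. Capitals mark GGGCA or its reverse complement TGCCC, a form of the GGCA core of HIC1.
*Zbtb37*, chr1:161034800-161035099, minus strand: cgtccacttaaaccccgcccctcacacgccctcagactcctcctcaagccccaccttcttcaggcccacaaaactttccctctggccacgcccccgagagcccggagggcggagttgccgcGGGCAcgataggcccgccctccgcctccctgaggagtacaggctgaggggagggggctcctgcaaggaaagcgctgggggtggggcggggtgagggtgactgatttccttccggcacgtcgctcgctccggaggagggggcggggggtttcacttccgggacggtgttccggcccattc
*Zbtb20*, chr16:43247034-43247333, plus strand: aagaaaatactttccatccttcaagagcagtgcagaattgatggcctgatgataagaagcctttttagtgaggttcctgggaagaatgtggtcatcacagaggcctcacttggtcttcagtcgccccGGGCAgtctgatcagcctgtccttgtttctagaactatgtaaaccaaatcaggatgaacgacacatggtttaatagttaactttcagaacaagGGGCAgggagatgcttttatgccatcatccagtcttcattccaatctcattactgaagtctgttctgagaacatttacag
*Zbtb44*, chr9:31030394-31030693, plus strand: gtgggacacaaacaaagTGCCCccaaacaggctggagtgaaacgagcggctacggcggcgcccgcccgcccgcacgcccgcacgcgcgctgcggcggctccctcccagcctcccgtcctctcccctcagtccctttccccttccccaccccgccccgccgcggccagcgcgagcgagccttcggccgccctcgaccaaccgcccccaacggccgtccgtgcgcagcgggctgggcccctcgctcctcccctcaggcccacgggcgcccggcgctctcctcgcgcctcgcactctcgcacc
The windows of *Zbtb37* and *Zbtb44* held 1 match each and that of *Zbtb20* held 2. Promoter windows were found for 24 of the 27 genes, 37 windows in all, and 59.5% of them held the motif on either strand, where 58.0% of the windows of tested genes and 53.5% of all windows did. The family was thus near the background, and a match is a description of the letters alone. The windows had a median of 23 CpG and 60.0% G or C against 20 CpG and 61.0% in the windows of tested genes. Of the windows shown, that of *Zbtb20* had the fewest CpG, with 3 against 23 in *Zbtb37* and 41 in *Zbtb44*. Other windows of the family were as poor in CpG, such as that of *Zbtb46* with 1 and a window of *Zbtb32* with 3.

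Family genes that go by other symbols had small differences apart from *Hic2*. Of the 13 listed, 8 had a cluster of their own and 6 were tested, and *Hic2* was the only one at an unadjusted p under 0.05 by limma. *Bcl6b*, a relative of the B cell repressor BCL6 that endothelium expresses, was at -0.13, *Mynn* at -0.08, *Patz1* at -0.07, *Gzf1* at -0.01 and *Zfp131* at 0.02. *Hic1*, the nearest relative of *Hic2*, stayed below the filter at 6.51, 6.58 and 6.36 in the wildtype and at 6.55, 6.67 and 6.56 in the mutant, and the genotypes overlapped. *Bcl6* was likewise below the filter.

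The corepressors and other partners of BTB proteins had differences near those of the array in general. Of 24 listed, 19 were tested, and 16 of these had a lower mean, where 71.8% of all tested clusters did. The median of the 19 was -0.10 against -0.09 over all tested clusters, and by limma 0 passed 0.05 before or after adjustment. *Bcor*, a corepressor of BCL6, was at -0.27 (standard error 0.127, limma adjusted p = 0.606). *Sin3a*, the scaffold of a histone deacetylase complex, stood at 10.06, 10.03 and 9.83 in the wildtype and at 9.82, 9.61 and 9.83 in the mutant, a difference of -0.22 (standard error 0.112, limma adjusted p = 0.606). Its genotypes did not overlap, where 9.59% of all tested clusters lay lower in this way. The gap was narrow, with wildtype replicate 3 at 9.832 and mutant replicate 3 at 9.826. *Hdac3*, the deacetylase of the NCOR complex, was at -0.03, and *Cul3*, the ligase scaffold, at -0.11.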

How the data were processed

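Hearts of wildtype and *Hic2* conditional mutant embryos were profiled on 3 arrays per genotype. The deposited log2 values come from RMA at the level of core genes, run by the authors in the Affymetrix Expression Console. Its version and the genome build are not named in the sources used here. The values were used as deposited. All 6 columns were used and no 2 were identical.

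The table held 23332 clusters, of which 14996 carried 1 gene symbol, 1019 more than 1 and 7317 no symbol. All members were matched to RefSeq (GRCm38.p6) by Entrez identifier, and 1 gene of the name pattern is not reported here. Clusters annotated to a gene with a linear mean over 100 in the higher genotype were compared by lmFit and eBayes of limma 3.58.1 (R 4.3.3) as the mutant mean less the wildtype mean, and p-values were adjusted over all 10439. The filter follows the methods of the study, and limma was used in place of its t-test, which was an alternative. The model was tested on simulated data with independent noise for each cluster and array. The simulation does not cover shifts shared by a whole array. Figures were drawn with matplotlib 3.10.9.

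Arrays of the same replicate number correlated in their deviations from the genotype means at 0.311, 0.142 and 0.458. Among unmatched arrays, wildtype replicate 2 with mutant replicate 1 reached 0.303, and wildtype replicate 1 with mutant replicate 2 reached 0.231. Both exceeded the 0.142 of replicate 2, and the other unmatched values were negative. These values do not establish a pairing, and the replicate numbers were treated as pairs in a block as an alternative only. Their meaning is not stated in the labels. The p-values weigh each difference against the spread between these pools, which limma moderates with that of all tested clusters. The number of arrays limits the precision. Other alternatives were changes of test, variance model, filter, normalisation, cluster choice and covariate, and the omission of single arrays. Values on every array are given for tested members at an unadjusted p under 0.05, without overlap or among the 3 highest or 3 lowest differences, and for further members chosen after their values were seen. The members and lists were chosen with earlier results of these data known.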

Additional observations from a re-analysis of the deposited data

How the results depend on the processing

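The count of *Zbtb* genes that passed the adjusted threshold was 0 under every alternative run, and so was the count higher at an unadjusted p under 0.05. The count lower at an unadjusted p under 0.05, 0 as reported, was 2 with the replicate number as a block (7.43% of all tested clusters), 3 with the erythroid covariate (*Zbtb41*, *Zbtb44* and *Zbtb8a*, against 21.6%), 1 with all clusters of a gene averaged (*Zbtb44*, against 5.90%), and between 0 and 5 when single arrays were omitted. It was 5 without mutant replicate 3, 4 without wildtype replicate 3 and 1 without mutant replicate 1, while 16.7%, 18.1% and 2.99% of all tested clusters were lower in these fits. Chosen after seeing the data, the block with median centring gave 4 (14.5%) and the dimmer *Zbtb44* cluster gave 1 (5.90%). The median difference, -0.15 as reported, was -0.28 with the erythroid covariate and lay between -0.19 and -0.06 under the other alternatives. The erythroid covariate itself differed with genotype.

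Signs of 9 genes near 0 were not stable. *Zbtb5* was at 0.011 with the methods' t-test on linear values, at 0.033 after cyclic loess and between -0.11 and 0.13 when single arrays were omitted. *Zbtb7b* was at -0.070 and *Zbtb7c* at -0.14 with the erythroid covariate, and *Zbtb7c* lay between -0.080 and 0.080 when arrays were omitted. After quantile normalisation *Zbtb17*, *Zbtb21*, *Zbtb25* and *Zbtb43* were at 0.0076, 0.0053, 0.030 and 0.024. After cyclic loess *Zbtb17*, *Zbtb21*, *Zbtb22*, *Zbtb25*, *Zbtb43* and *Zbtb48* were at 0.016, 0.010, 0.010, 0.045, 0.025 and 0.0084. When arrays were omitted, *Zbtb25* lay between -0.11 and 0.0091 and *Zbtb43* between -0.13 and 0.016. The cause was not tested. *Hic2* kept its direction and passed the adjusted threshold in 4 settings. Leaving out *Zbtb8os* was not run, because no cluster carried that name.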
